A study of Mus musculus with 12 samples.

Results

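The duodenum and the spleen were compared in mice that had received an isotype antibody and no agonist of the lymphotoxin beta receptor (LTbR). The comparison holds every library labelled with either tissue and the treatment isotype: 3 duodenum libraries and 3 spleen libraries, 6 of the 12 samples of the series. All groups came from wild type mice of the inbred strain C57BL/6J aged 2 months, and the tissues were taken 24 hours after 100 ul of a 1 mg/ml antibody solution. The other 6 libraries, 3 per tissue, came from mice given AC H6, an antibody that engages LTbR, and are used below to repeat the comparison and to test whether the tissue difference depends on the antibody. Library preparation used a TruSeq kit (Illumina) without strand marking. The design text gives an n of 3 per genotype and a dose per mouse, but no label ties a library to a mouse or a duodenum library to a spleen library, and the p-values therefore measure the spread between these libraries, which may be technical.

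LTbR belongs to the tumour necrosis factor (TNF) receptor family and is found on stromal, myeloid and epithelial cells. Its ligands, the lymphotoxin heterotrimer made from the Lta and Ltb products and the TNF family member LIGHT (Tnfsf14), are made by lymphocytes. Once bound, the receptor draws in TRAF adaptors, which frees the kinase NIK (Map3k14) to activate the alternative NF-kB pathway through IKK alpha (Chuk), p100/p52 (Nfkb2) and RelB. In lymphoid organs this pathway maintains the stromal chemokines and adhesion molecules that order B and T cell areas. The duodenum is the first stretch of the small intestine, lined by an absorptive epithelium over Brunner glands, while the spleen is a blood-filtering organ of B and T cell follicles and a red pulp rich in macrophages and red blood cells.

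Sequencing depth ran from 24811659 to 34488965 counts in the duodenum libraries and from 13874091 to 36543472 in the spleen libraries. Some libraries stood apart from others of their group. Duodenum replicate 1 held 7.56% of its counts on the ribosomal precursor Rn45s, against 0.124% and 0.146% in replicates 2 and 3, and only 30 counts of the gastric gene Gkn1, against 12060 and 6471. The amylase 2 genes of the exocrine pancreas held 2.13% of duodenum replicate 2 and 0.182% of spleen replicate 2, and 0.0263% or less of the other 4. Haemoglobin genes held 12.1%, 19.0% and 7.59% of the spleen libraries. Some results that rest on these libraries are given with and without them. The differences of the haemoglobin genes, Slc4a1, Tff2 and Muc6 are given only with all 6 isotype libraries. The protocol in the labels speaks of brain, whereas the tissue labels read duodenum or spleen. Of a list of 12 brain genes 9 were expressed enough to be tested, 3 were higher in duodenum and 5 in spleen. Snap25, named after its value was seen, had 527 counts over the duodenum libraries and 0 over the spleen libraries. The log2 differences of the list, duodenum over spleen, ran from -5.62 to 10.6. Mbp (-0.87 ± 0.06), Aqp4 (4.71 ± 0.27), Camk2a (-1.33 ± 0.12) and Syt1 (1.19 ± 0.23) were its most abundant members, and Syn1 was not called (0.62). It was called with the replicate number as a block (0.62, edgeR adjusted p = 0.0213), without duodenum replicate 2 (0.77) and without spleen replicate 3 (0.83). The defining genes of duodenum and spleen were present at the levels given below.

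Levels are in CPM, a gene's counts relative to the total of its library, scaled by trimmed mean of M values (TMM), and differences are log2 of duodenum over spleen ± standard error, so that a positive value is higher in duodenum. Of 16029 genes tested, 6757 (42.2%) were higher in duodenum and 7024 (43.8%) were higher in spleen (quasi-likelihood test of edgeR, Benjamini-Hochberg adjusted p under 0.05), so that 86.0% differed and 2248 were not called. A stricter test against a 2-fold difference called 4022 genes (25.1%) higher in duodenum and 3353 (20.9%) higher in spleen, 46.0% in all. The 3 duodenum values and the 3 spleen values did not overlap for 14047 genes (87.6%). The median log2 difference over all tested genes was -0.05. With most of the transcriptome called, a call on its own says little, and the sizes of the differences are what distinguishes one group of genes from another. These are bulk tissues, in which fewer cells of a type and less RNA per cell cannot be told apart. A scaling by upper quartile moved the median of all genes by -0.27, and calls then split into 5760 higher in duodenum and 8232 higher in spleen (41.2% of calls higher in duodenum, against 49.0%), so small differences depend on the scaling.

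**Figure D1:**
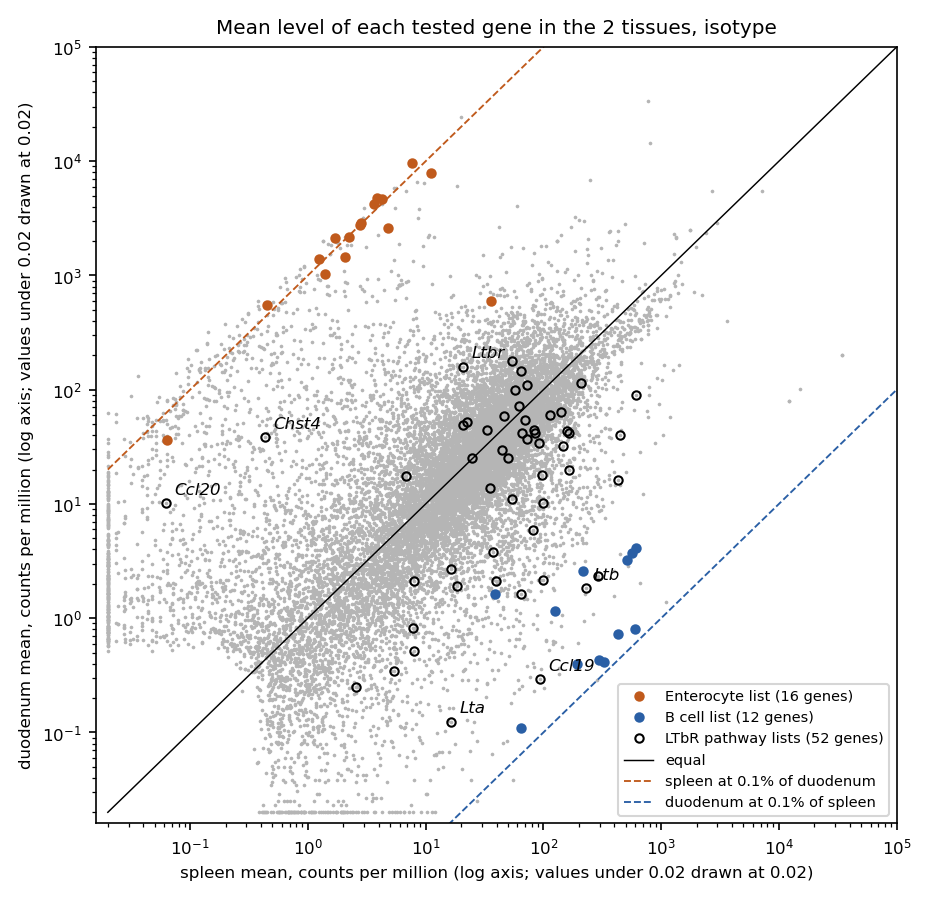
Mean level of each tested gene in the 3 spleen isotype libraries (horizontal, CPM, log axis) against the 3 duodenum isotype libraries (vertical, same unit), with the enterocyte, B cell and LTbR pathway lists marked and lines where one tissue holds 0.1% of the other. All but 1 of the 16 enterocyte genes lie near the line of 0.1% in spleen, B cell genes lie far below equality toward the opposite line, and pathway genes spread on both sides of equality with Ltbr above it and Ltb and Lta far below.

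Within the LTbR pathway, Ltbr was higher in duodenum, and its ligands and 10 of 13 tested lymphoid stroma targets were higher in spleen. The lists of receptors, adaptors, kinases and inhibitors each held genes of both directions. Of 53 pathway genes, 52 were tested, and 13 were higher in duodenum, 38 higher in spleen and 1 not called. Over all tested genes these shares were 42.2% in duodenum and 43.8% in spleen. Beyond 2-fold, 8 were higher in duodenum and 28 in spleen, beside 25.1% and 20.9% of all tested genes. The median log2 difference was -1.64 beside -0.05 over all tested genes. With upper-quartile scaling the split was 10 and 39, and beyond 2-fold 4 and 35.

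Ltbr (chr6:125306571-125313885, minus strand) stood at 161, 162 and 154 CPM in the duodenum libraries and at 19.7, 23.5 and 19.2 CPM in the spleen libraries. All 3 duodenum values lay far above all 3 spleen values, a log2 difference of 2.93 ± 0.08 (edgeR adjusted p = 8.858e-09). Per kilobase of exon, Ltbr was at 67.5 ± 1.88 RPKM in duodenum and 8.84 ± 0.993 RPKM in spleen (SD, n = 3). Tnfrsf1a, which lies nearby (chr6:125349362-125362484, plus strand), encodes TNF receptor 1, which binds TNF and lymphotoxin alpha homotrimers. It stood at 189, 176 and 171 CPM in duodenum and 50.5, 57.0 and 53.4 CPM in spleen, also without overlap (1.73 ± 0.06). The other 4 receptors were higher in spleen. Tnfrsf1b, TNF receptor 2 of haematopoietic cells, differed by -2.43 ± 0.08, and Tnfrsf14 (HVEM), which shares the ligand LIGHT with LTbR, by -1.34 ± 0.15. Btla, an inhibitory HVEM partner on lymphocytes, stood at 1.92, 2.27 and 2.86 CPM in duodenum and at 304, 270 and 306 CPM in spleen (-6.95 ± 0.13), and Cd160, another HVEM partner, differed by -1.92 ± 0.14.

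The ligand genes showed the opposite and larger contrast. Ltb (chr17:35194439-35196320, plus strand), the membrane-anchoring subunit of the heterotrimer, stood at 1.61, 1.68 and 2.18 CPM in duodenum and at 211, 232 and 243 CPM in spleen. That is a log2 difference of -6.96 ± 0.12, with the duodenum at 0.797% of the spleen level. Lta (chr17:35203165-35205351, minus strand) stood at 0.104, 0.0699 and 0.199 CPM in duodenum, only 9 counts over the 3 libraries, and at 18.0, 15.7 and 15.7 CPM in spleen (-7.0 ± 0.21, or 0.753% of the spleen level). Tnf, which lies between them (chr17:35199381-35202007, plus strand), differed by -3.19 ± 0.28, and Tnfsf14 by -3.96 ± 0.17. For none of the 4 ligands did the 2 tissues overlap, which also held for 87.6% of all genes tested. For comparison, the 12 genes of the B cell list differed by -9.58 to -4.55 (median -8.16), and the 12 genes of the T cell list by -7.04 to -1.87 (median -4.48). Ltb and Lta thus lay inside the range of both lists, between their medians. Among single genes, Cd79a, Cd79b and Cd22 of B cells stood at 0.676%, 0.659% and 0.631% of their spleen level, and Cd3e, Cd4 and Cd3d of T cells at 10.02%, 9.67% and 3.92%. Cd3e and Cd3d were chosen after their values were seen, and the lowest T cell gene, at -7.04, lay beside Lta. How far the ligand difference follows the difference in lymphocyte transcripts was not tested.

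The sequences before the start sites of Ltbr and the ligand gene Lta are shown as examples of the opposed contrast, which Ltb shared. They are the 200 bases before the RefSeq start on GRCm38.p6, 5′ to 3′ on the gene's strand, at chr6:125313886-125314085 (minus strand) for Ltbr and chr17:35205352-35205551 (minus strand) for Lta. Capitals mark matches to any of 8 motifs searched on both strands: HNF4 CAAAGTCCA, HNF1 GTTAATNAT, GATA factors AGATAA, CDX TTTATNG, the TATA box TATAAA, a PU.1-type ETS motif GAGGAAGT, a GABP-type ETS motif CCGGAAGT and NF-kB GGGANTTCC. The CDX and TATA box motifs can share letters.
Ltbr: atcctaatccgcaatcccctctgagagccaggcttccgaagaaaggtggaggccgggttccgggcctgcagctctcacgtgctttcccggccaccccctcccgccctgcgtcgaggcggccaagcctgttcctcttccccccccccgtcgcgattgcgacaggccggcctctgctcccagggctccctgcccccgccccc
Lta: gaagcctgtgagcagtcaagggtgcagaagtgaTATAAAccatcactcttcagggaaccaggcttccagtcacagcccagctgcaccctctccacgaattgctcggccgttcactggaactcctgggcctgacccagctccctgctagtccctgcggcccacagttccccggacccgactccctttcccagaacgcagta
The Ltbr window held none of the 8 motifs, and the Lta window held the TATA box letters once. A match is a description of the letters and not a bound site, and its absence says nothing about a factor.

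Among the 11 adaptors 4 were higher in duodenum and 7 in spleen, with a median of -0.91. Traf1, an adaptor induced by NF-kB in lymphocytes, had the largest difference at -5.30 ± 0.19, with 1.30, 1.33 and 2.26 CPM in duodenum and 60.3, 67.0 and 66.9 CPM in spleen. Traf5 followed at -3.28 ± 0.14. The adaptors that hold NIK in check differed less: Traf3 by -1.42 ± 0.08, Traf2 by -0.97 ± 0.08, Birc2 (cIAP1) by -0.91 ± 0.07 and Birc3 (cIAP2) by -1.86 ± 0.09. Traf6 differed by -0.59 ± 0.08. Higher in duodenum were Traf4 (1.24 ± 0.07), Tradd (1.24 ± 0.08), Ripk1 (0.35 ± 0.05) and the deubiquitinase gene Otud7b (0.20 ± 0.07). The Otud7b difference turned to -0.07 with upper-quartile scaling and lost its call without duodenum replicate 3 (0.13), spleen replicate 1 (0.18) or spleen replicate 2 (0.19). Ripk1 was not called with upper-quartile scaling.

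The kinases were divided by gene. Map3k14, which encodes NIK, stood at 10.3, 10.9 and 11.95 CPM in duodenum and 51.1, 55.2 and 55.9 CPM in spleen (-2.29 ± 0.08). Chuk, the kinase that NIK activates, was the reverse at 149, 140 and 151 CPM against 65.5, 63.8 and 65.3 CPM (1.18 ± 0.05). Its partner in the classical pathway, Ikbkb, differed by -1.97 ± 0.07, the regulatory subunit Ikbkg by 0.78 ± 0.07, and the upstream kinase Map3k7 (TAK1) by -0.36 ± 0.05. The gene span of Ikbkg overlaps that of G6pdx on the other strand, and without strand marking, reads from any stretch that lies in exons of both cannot be told apart.

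All 5 NF-kB subunit genes were higher in spleen. Nfkb2, the precursor of the alternative pathway, stood at 31.9, 30.5 and 34.9 CPM in duodenum and 139, 149 and 154 CPM in spleen (-2.19 ± 0.07). Rel, the lymphocyte subunit c-Rel, had the largest difference of the 5 at -3.29 ± 0.17. Rela (-1.01 ± 0.07), Nfkb1 (-0.86 ± 0.06) and Relb (-0.65 ± 0.10) differed by about 2-fold or less. Of the 8 inhibitor genes 5 were higher in spleen, led by Nfkbid at -4.21 ± 0.09 and Nfkbie at -3.78 ± 0.08. Nfkbia differed by -1.14 ± 0.12, the deubiquitinase genes Tnfaip3 (A20) by -0.97 ± 0.11 and Cyld by -0.91 ± 0.06. Tnip1, a partner of A20, was higher in duodenum at 0.58 ± 0.05, as was Bcl3, a partner of p52, at 0.40 ± 0.09, a difference that lost its call with upper-quartile scaling. Nfkbib was at 24.9, 24.6 and 27.0 CPM in duodenum and 23.3, 25.6 and 24.9 CPM in spleen, overlapping ranges (0.05 ± 0.08, edgeR adjusted p = 0.5483). With upper-quartile scaling it was called higher in spleen (-0.22, edgeR adjusted p = 0.02942).

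The lymphoid stroma targets separated into a large spleen group and a small duodenum group. Of 13 tested 10 were higher in spleen and 3 in duodenum, all beyond 2-fold, and the median was -3.28. Ccl19, the chemokine of the splenic T cell zone, stood at 0.207, 0.349 and 0.318 CPM in duodenum and 89.9, 91.5 and 99.3 CPM in spleen (-8.26 ± 0.12). Cxcl13, which draws B cells into follicles, was at 1.76, 2.69 and 1.99 CPM against 106, 81.7 and 110 CPM (-5.50 ± 0.18). Vcam1, an adhesion molecule of stroma and of red pulp macrophages, differed by -4.74 ± 0.07, Ubd, a ubiquitin-like modifier, by -3.95 ± 0.21, Cxcl12 by -3.49 ± 0.06 and Tnfsf11 (RANK ligand) by -3.42 ± 0.30. Icam1 (-3.28 ± 0.07), Ccl21a (-3.05 ± 0.14, reads shared with a near-identical copy), Mfge8 (-2.76 ± 0.06) and Madcam1 (-2.61 ± 0.12) completed the spleen group. Madcam1, the ligand of the gut homing integrin, was thus at 2.33, 3.14 and 2.54 CPM in duodenum and 16.8, 16.2 and 16.7 CPM in spleen.

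Higher in duodenum were Ccl20, Chst4 and Tnfsf13b. Ccl20, the chemokine of the epithelium over lymphoid follicles, stood at 5.49, 11.3 and 13.9 CPM in duodenum, and only 4 counts were seen over the 3 spleen libraries (7.65 ± 0.64). Chst4, a sulphotransferase that makes L-selectin ligands in high endothelial venules, stood at 42.8, 33.7 and 38.2 CPM against 0.526, 0.268 and 0.491 CPM (6.57 ± 0.20). Tnfsf13b, the B cell survival factor BAFF, stood at 16.9, 16.6 and 18.8 CPM against 6.13, 6.03 and 8.31 CPM (1.35 ± 0.13). Glycam1, another high endothelial venule gene, had 1 or no count in all but 1 of the 6 libraries and was not tested.

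**Figure D2:**
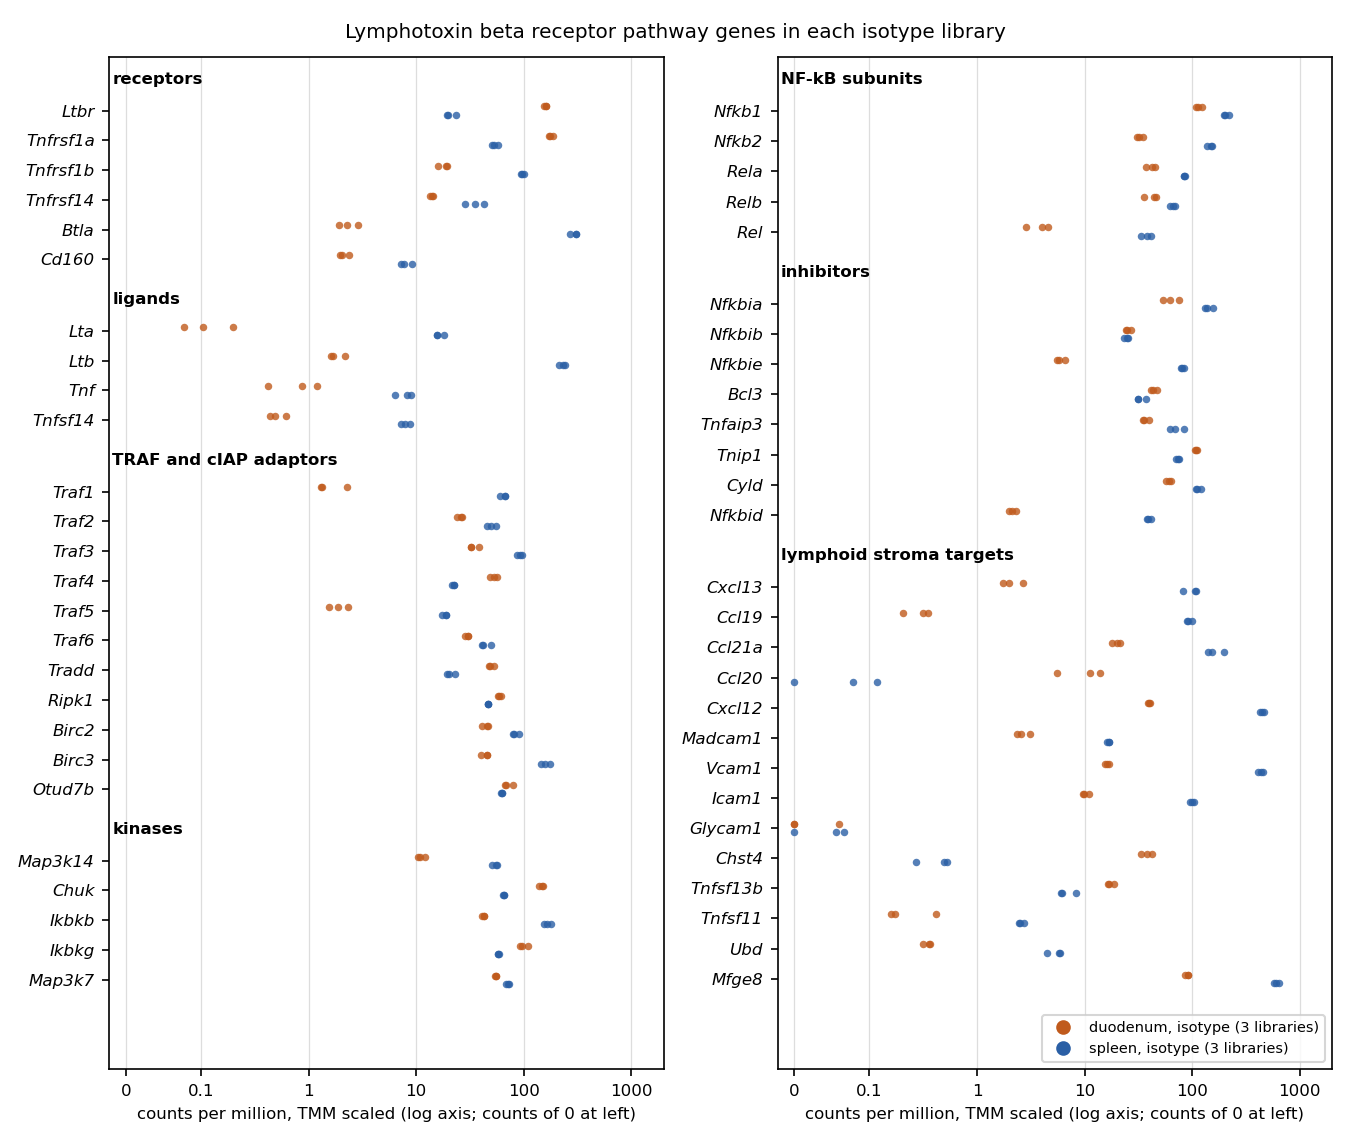
Level of each LTbR pathway gene in each of the 6 isotype libraries (horizontal, TMM-scaled CPM, log axis with counts of 0 at the left edge), 1 point per library, ordered by role. The 3 points of a tissue lie close together against the distance between tissues for nearly every gene. Ltbr, Tnfrsf1a, Chuk, Ccl20 and Chst4 have their duodenum points to the right, and the ligands and most targets have their spleen points to the right.

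Related ligand and receptor systems gave a mixed picture. Of the 8 BAFF, APRIL and RANK genes 4 were higher in duodenum and 3 in spleen. Tnfsf13, the plasma cell survival factor APRIL, was higher in duodenum (1.99 ± 0.06) together with Tnfsf13b and with Tnfrsf11a, the receptor RANK (2.40 ± 0.08). The BAFF receptor of B cells, Tnfrsf13c, was at 0.777, 0.454 and 0.556 CPM in duodenum and 126, 117 and 118 CPM in spleen (-7.69 ± 0.13), so BAFF and this receptor were higher in opposite tissues. Tnfrsf17, the plasma cell receptor BCMA, was not called (-0.53), but was called with upper-quartile scaling (-0.80) and without spleen replicate 1 (-0.70). Of 8 lymphoid chemokine receptors 6 were higher in spleen and 2 in duodenum (highest 2.61). The 6 included Cxcr5, the receptor for Cxcl13 (-8.01 ± 0.14), Ccr7, the receptor for Ccl19 and Ccl21a (-6.92 ± 0.15), Cxcr4 (-5.39 ± 0.29) and Cxcr7 (-1.97 ± 0.09). Of 9 gut homing genes 4 were higher in duodenum and 5 in spleen. The epithelial chemokines Ccl25 (449, 382 and 384 CPM against 1.11, 1.83 and 1.86 CPM, 7.92 ± 0.16) and Ccl28 (8.72 ± 0.27) were higher in duodenum. The integrin chains Itga4 (-4.45 ± 0.05) and Itgb7 (-4.33 ± 0.11) were higher in spleen. Values of the other members are not reported here, among them the chemokine receptors Ccr9 and Ccr10.

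Among abundant genes, the largest differences in favour of duodenum belonged mostly to its epithelium. The 12 genes named for size, among those at 100 CPM or more in duodenum that met the naming rule, ran from 10.58 to 11.34 on the log2 scale. The highest value over all tested genes was 12.84. Ang4, an antimicrobial ribonuclease of Paneth and goblet cells, led at 119, 141 and 133 CPM in duodenum against 0, 0.0732 and 0.0351 CPM in spleen (11.34 ± 0.21). The transcription factor genes Foxq1 (10.99 ± 0.32) and Elf3 (10.73 ± 0.20), the gluconeogenic enzyme gene Fbp2 (10.91 ± 0.14), the glucuronosyltransferase gene Ugt2b5 (10.80 ± 0.50), the ubiquitin ligase gene Trim31 (10.73 ± 0.16) and the serine protease gene Prss32 (10.67 ± 0.18) followed. Apoc3 (10.66 ± 0.11), an apolipoprotein, Mal2 (10.61 ± 0.21), which sorts proteins to the apical membrane, Cldn3 (10.59 ± 0.22), a claudin, and Hkdc1 (10.58 ± 0.21), a hexokinase family member, were near them. Tff1, a trefoil peptide of gastric surface cells, completed the set at 10.64 ± 2.08, with 1.66, 286 and 176 CPM in duodenum: it was all but missing from replicate 1, stood at 11.22 without that library, and was not called by limma-voom (adjusted p = 0.3889).

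Absorptive enterocytes were represented by 16 genes, all higher in duodenum, with a median of 9.98. Sis, sucrase-isomaltase of the brush border, stood at 5012, 4597 and 4592 CPM in duodenum and at 3.91, 3.88 and 3.82 CPM in spleen (10.25 ± 0.14). Alpi, intestinal alkaline phosphatase (10.30 ± 0.18), Apoa1 (10.11 ± 0.19) and Apoa4 (9.48 ± 0.19), the apolipoproteins of chylomicrons, were of the same order. The 5 genes with the largest share of duodenum counts were Rn45s, the alkaline phosphatase Akp3 at 2.00 ± 0.0998% (SD, n = 3), the ferritin heavy chain Fth1 at 1.20 ± 0.0520%, Alpi at 0.799 ± 0.0426% and Apoa4 at 0.650 ± 0.0827%. Akp3 differed by 10.26 ± 0.25 and Fth1 by 4.19 ± 0.16. The Rn45s difference of 5.42 ± 1.63 rested on duodenum replicate 1: it was 1.04 without that library, and 2.45 with the replicate number as a block (edgeR adjusted p = 0.08797).

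Upstream sequences of 3 enterocyte genes are shown as examples in which motifs of the intestinal factors HNF4, CDX or GATA are written out. They were picked for their matches: over the 250 bases before the start, HNF4 letters were in 2 of the 16 enterocyte promoters, GATA in 2, CDX in 6 and HNF1 in 0. Treh and Lct, chosen after their sequences and values were seen, encode the brush border enzymes trehalase (10.29 ± 0.11) and lactase (9.56 ± 0.24). The windows are the 200 bases before the RefSeq start on GRCm38.p6, at chr1:87101607-87101806 (minus strand) for Alpi, chr9:44673033-44673232 (plus strand) for Treh and chr1:128328319-128328518 (minus strand) for Lct.
Alpi: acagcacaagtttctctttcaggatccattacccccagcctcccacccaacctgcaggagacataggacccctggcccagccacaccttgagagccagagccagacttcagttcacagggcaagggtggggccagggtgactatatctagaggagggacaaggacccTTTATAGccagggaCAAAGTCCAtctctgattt
Treh: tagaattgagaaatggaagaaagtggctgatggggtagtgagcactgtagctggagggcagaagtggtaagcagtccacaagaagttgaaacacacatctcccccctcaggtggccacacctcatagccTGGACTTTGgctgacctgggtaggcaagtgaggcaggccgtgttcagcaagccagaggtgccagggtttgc
Lct: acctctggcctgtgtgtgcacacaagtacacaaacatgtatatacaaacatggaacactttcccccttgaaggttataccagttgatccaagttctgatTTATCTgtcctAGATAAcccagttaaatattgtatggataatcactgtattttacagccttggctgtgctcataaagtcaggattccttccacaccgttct
Capitals mark an HNF4 match in Alpi starting at -19 and in Treh at -71 counted from the start, a CDX match in Alpi at -33 that shares its letters with a TATA box, and GATA matches in Lct at -101 and -90. Over the 250 bases before the start, HNF4 letters were in 0.953% of the 2938 promoters of genes higher in duodenum beyond 2-fold and at 10 CPM or more there. They were in 0.407% of the 2210 promoters of the matching spleen set, in 0.453% of the 15463 promoters of tested genes and in 0.384% of all 32851 RefSeq promoters. The PU.1-type motif was in 2.35% of the duodenum set, 4.52% of the spleen set and 2.61% of tested genes, and the NF-kB motif in 1.63%, 2.40% and 1.82%. CDX letters were in 7.73%, 6.24% and 6.76%, the TATA box in 8.92%, 7.69% and 7.50%, GATA in 7.11%, 7.92% and 6.71%, HNF1 in 0.783%, 0.271% and 0.511%, and the GABP-type motif in 3.44%, 2.53% and 5.01%. These shares are descriptions with no test.

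Goblet, Paneth and enteroendocrine cell genes of the gut epithelium were about as far from the spleen. The tuft cell list was divided: of 8 genes tested, 3 were higher in duodenum and 4 in spleen (median -0.08). All 9 goblet cell genes were higher in duodenum (median 9.78), among them Fcgbp, which binds mucus (9.93 ± 0.18), Zg16, a lectin of the mucus layer (9.68 ± 0.37), Tff3 at 953, 924 and 942 CPM against 0.993, 0.830 and 0.841 CPM (10.07 ± 0.10), and Clca1, listed under the older symbol Clca3 (10.30 ± 0.15). All 10 Paneth cell genes were higher (median 9.61), with the defensin genes Defa24 (10.02 ± 0.26) and Defa17 (10.37 ± 0.16), whose reads may be shared with paralogs, the intelectin gene Itln1 (10.47 ± 0.22) and the lysozyme gene Lyz1 (5.08 ± 0.14). Of 13 enteroendocrine genes 12 were higher in duodenum. The granule proteins Chga (10.72 ± 0.28) and Chgb (8.98 ± 0.15) and the hormones Gip at 68.7, 66.9 and 68.7 CPM (10.08 ± 0.29) and Cck (9.29 ± 0.17) led by level. The exception was Nts, neurotensin, at -1.11 ± 0.35, a gene of under 1 CPM in every library, named after its value was seen. It was not called by DESeq2 (adjusted p = 0.1027), without duodenum replicate 3 (-0.95) or without spleen replicate 3 (-0.98).

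Brunner gland and pyloric genes were high in all 8 tested (median 9.37), and they varied between duodenum libraries more than the enterocyte genes did. Tff2, a trefoil peptide, was at 4438, 8186 and 6975 CPM in duodenum (9.60 ± 0.33) and the gland mucin Muc6 at 4393, 7556 and 7490 CPM (9.38 ± 0.30), both lowest in replicate 1. Gkn3 was at 2317, 3758 and 3431 CPM (8.54 ± 0.24). Gkn2, a gastric surface gene, was at 0.518, 437 and 265 CPM (9.09 ± 1.97), at 9.68 without replicate 1, and was not called by limma-voom (adjusted p = 0.4501). Of 11 crypt stem cell genes 9 were higher in duodenum (median 2.50), including Olfm4 (7.85 ± 0.13), Rnf43 (4.66 ± 0.08) and Slc12a2 (2.33 ± 0.09). The stem cell gene Smoc2 was higher in spleen (-1.12 ± 0.05), with 75.9, 80.7 and 81.9 CPM in duodenum and 173, 181 and 166 CPM in spleen, and Znrf3 was not called (0.03).

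Genes of the exocrine pancreas were seen mainly in 1 library of each tissue. Amy2a5 stood at 13.9, 7823 and 93.6 CPM in duodenum and 10.04, 493 and 14.02 CPM in spleen, and Cela1 and Ctrb1 were highest in the same replicate 2 of each tissue. Of 13 tested, 2 were higher in duodenum and 11 were not called, with a median of 3.98. With the replicate number as a block 12 were higher in duodenum (Amy2a5 2.62, edgeR adjusted p = 0.003863). Without spleen replicate 2 it was 11, without duodenum replicate 1 it was 12, and without duodenum replicate 3 it was 7. Without duodenum replicate 2 the median was -0.65 and Amy2a5 stood at -1.67. Amy2a5 and Ctrb1 were called without spleen replicate 2 (7.76 and 8.45), Ctrb1 also without duodenum replicate 1 (5.01), and Cela1 without duodenum replicate 1 (3.00) or 3 (2.98). The 2 called genes were Zg16, which belongs to goblet cells too, and Clps (5.81), named after its value was seen.

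**Figure D3:**
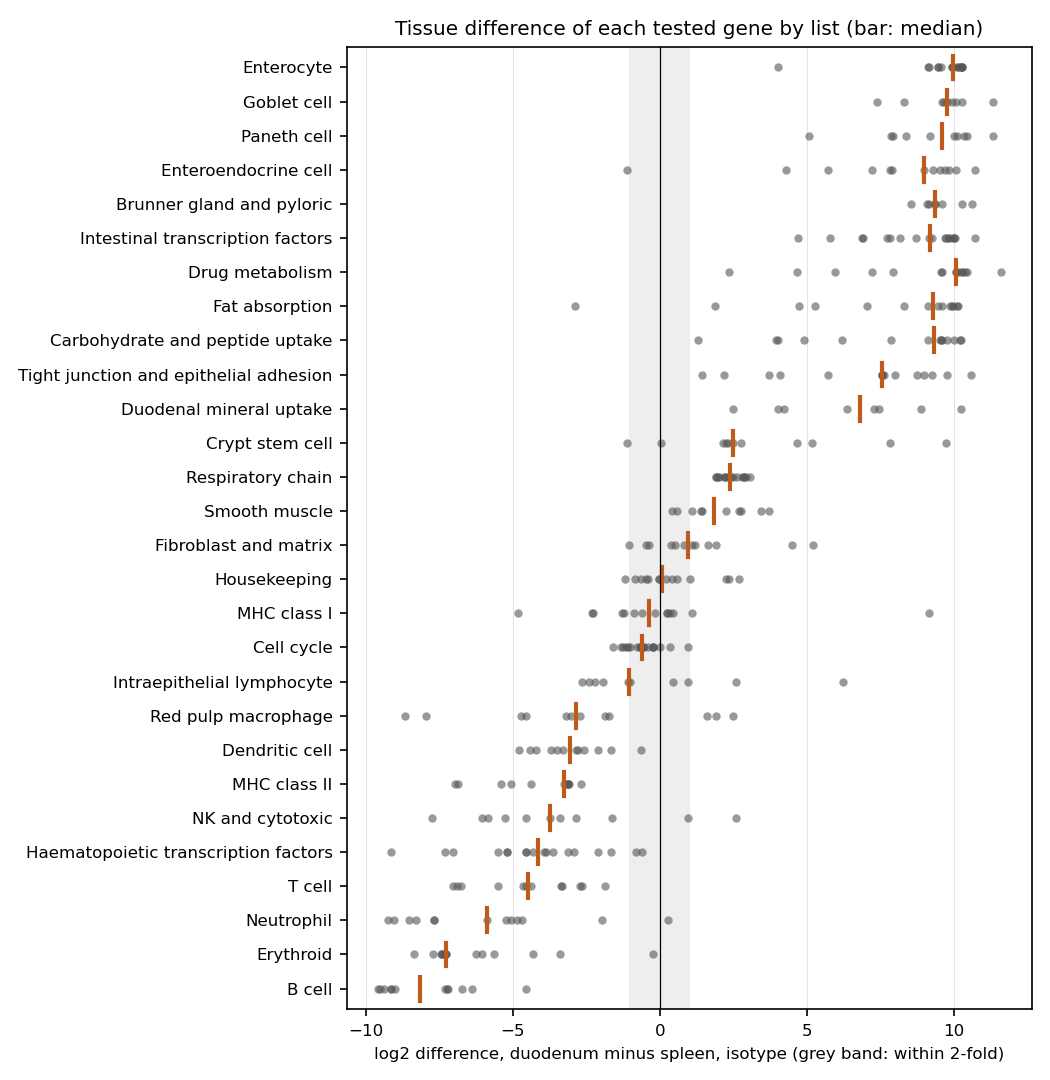
Log2 difference (duodenum minus spleen, isotype, horizontal) of each tested gene in 28 lists, 1 grey point per gene, with an orange bar at the list median and a grey band within 2-fold. The top 11 lists, of epithelium and absorption, have medians between 6.82 and 10.07, most immune lists lie to the left with the B cell list lowest at -8.16, and the housekeeping and MHC class I lists have medians near 0 with members far to both sides.

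Nutrient handling was higher in duodenum across lists. Of 14 fat absorption genes 13 were higher in duodenum (median 9.30), among them Apob, the core protein of chylomicrons (9.99 ± 0.16), Fabp2, a fatty acid binding protein (9.96 ± 0.27), and Mttp, which loads lipid onto Apob (9.12 ± 0.15). The exception, named after its value was seen, was the fatty acid transporter Cd36 at 30.5, 29.9 and 30.7 CPM in duodenum and 228, 249 and 190 CPM in spleen (-2.87 ± 0.10). All 14 carbohydrate and peptide genes were higher (median 9.33), with Mgam, maltase-glucoamylase (10.01 ± 0.16), and Slc5a1, the sodium glucose cotransporter (10.21 ± 0.14). All 8 mineral uptake genes were higher (median 6.82). S100g, the calcium carrier calbindin-D9k, stood at 5135, 5357 and 4111 CPM against 4.38, 3.54 and 4.14 CPM (10.25 ± 0.21), Cybrd1, the iron reductase of the brush border, differed by 7.45 ± 0.18, and Atp2b1, a calcium pump, by 4.23 ± 0.09. The iron exporter Slc40a1 (ferroportin), which serves both enterocytes and red pulp macrophages, was at 2750, 2220 and 2314 CPM in duodenum and 443, 443 and 416 CPM in spleen (2.48 ± 0.11).

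All 15 drug metabolism genes were higher in duodenum (median 10.07), led by level by the glutathione transferase Gsta1 (10.07 ± 0.31), the glucuronosyltransferases Ugt2b34 (10.16 ± 0.19) and Ugt1a1 (7.21 ± 0.16) and the cytochrome P450 Cyp3a11 (10.45 ± 0.30). Of 14 retinoid genes 12 were higher in duodenum, among them Rbp2, the retinol binding protein of enterocytes (10.28 ± 0.19), the retinol dehydrogenase Rdh7 (9.22 ± 0.29) and the retinoic acid making enzymes Aldh1a1 (3.54 ± 0.42) and Aldh1a3 (4.68 ± 0.12). Cyp26b1, which degrades retinoic acid, was not called (0.58) and was called with the replicate block (0.64, edgeR adjusted p = 0.007721) and without spleen replicate 2 (1.11). Tight junction and adhesion genes were higher in all 15 tested (median 7.57), with Cdh17 (7.57 ± 0.12), Epcam (7.99 ± 0.20), Cdh1 (7.57 ± 0.08) and Cldn15 (7.55 ± 0.11). The 16 respiratory chain genes were each higher in duodenum beyond 2-fold within a narrow span, from 1.90 to 3.06 with a median of 2.39. Atp5b, the beta subunit of ATP synthase, stood at 2885, 2852 and 2689 CPM against 510, 507 and 472 CPM (2.50 ± 0.09), and Atp5a1, Sdha and Cox4i1 differed by 2.23 ± 0.09, 2.36 ± 0.07 and 2.20 ± 0.07.

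Transcription factors divided without exception in the lists used. All 18 intestinal factors were higher in duodenum (median 9.21), with Hnf4a at 822, 756 and 814 CPM against 0.759, 0.927 and 0.877 CPM (9.83 ± 0.10), Hnf4g (10.05 ± 0.19), Creb3l3 (9.26 ± 0.11) and the vitamin D receptor Vdr (8.18 ± 0.12). All 18 haematopoietic factors were higher in spleen (median -4.13), with Ikzf1 at 7.26, 7.79 and 7.43 CPM against 345, 330 and 334 CPM (-5.49 ± 0.06), Ikzf3 (-5.21 ± 0.10), Spib (-5.21 ± 0.07) and Irf8 (-2.11 ± 0.06).

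The muscle wall and nerves of the duodenum were visible at smaller differences. All 10 smooth muscle genes were higher in duodenum (median 1.84), with the myosin gene Myh11 at 511, 505 and 554 CPM against 81.6, 77.2 and 82.7 CPM (2.70 ± 0.06), Des (1.44 ± 0.05), Acta2 (1.41 ± 0.05) and Tagln (0.59 ± 0.05). Of 11 enteric neuron and glia genes 9 were higher in duodenum (median 2.63), among them the neuropeptide Vip (7.58 ± 0.20), the ubiquitin hydrolase Uchl1 (2.84 ± 0.18) and the receptor Ret (2.63 ± 0.16). Of 12 fibroblast and matrix genes 8 were higher in duodenum and 3 in spleen (median 0.96), with the collagen genes Col6a1 at 1.65 ± 0.16, Col3a1 at 0.82 ± 0.16 and Col1a2 at -0.48 ± 0.11. Col1a1 was not called (0.38 ± 0.20) and was called with the replicate block (0.42, edgeR adjusted p = 0.004893) and without spleen replicate 2 (0.67). Of 11 splenic stroma genes 7 were higher in spleen. Tlx1, the homeobox gene needed to form a spleen and named after its value was seen, was at 28.7, 30.2 and 23.2 CPM in spleen and had 2 counts over the 3 duodenum libraries, a ratio of 1009 with a 95% exact counting interval from 279 to 8336. Nkx2-3 (0.74 ± 0.11), a homeobox gene of both spleen and gut, was higher in duodenum, and Tcf21 (-1.53 ± 0.09) in spleen.

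Many of the largest differences in favour of spleen among abundant genes belonged to B cells. Among genes at 100 CPM or more in spleen that met the naming rule, the 12 named for size ran from -9.88 to -8.30, and the lowest value over all tested genes was -11.32. Faim3, also known as Fcmr, the IgM receptor, led at -9.88 ± 0.16, followed by Coch, cochlin (-9.65 ± 0.19), and by the B cell genes Cr2 (-9.58 ± 0.19), Fcer2a (-9.39 ± 0.15), Ms4a1 (-9.16 ± 0.15) and Blk (-9.01 ± 0.22). Coch stood at 1083, 1091 and 1110 CPM in spleen and 1.71, 1.47 and 0.953 CPM in duodenum. Cd5l of red pulp macrophages (-8.67 ± 0.12), the platelet chemokine Ppbp (-8.62 ± 0.21), the calprotectin genes S100a8 (-8.52 ± 0.26) and S100a9 (-8.30 ± 0.24) and the red cell anion exchanger Slc4a1 (-8.35 ± 0.85) were also among them. Slc4a1 varied within the spleen group at 779, 1076 and 140 CPM, lowest in replicate 3.

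All 12 genes of the B cell list were higher in spleen (median -8.16), and their summed level was 18.3 to 20.6 CPM in duodenum and 3784 to 4157 CPM in spleen. Cd79a, a signalling chain of the B cell receptor, stood at 3.68, 4.89 and 3.73 CPM in duodenum and 634, 602 and 583 CPM in spleen (-7.20 ± 0.12), with Cd79b at -7.25 ± 0.09 and Cd22 at -7.31 ± 0.08. All 12 T cell genes were higher in spleen by less (median -4.48): Lat by -5.49 ± 0.11, Tcf7 by -4.57 ± 0.08, Cd4 by -3.37 ± 0.08 and Cd8a by -2.66 ± 0.07. Cd3e, named above for comparison with the ligands, differed by -3.32 ± 0.09. Cytotoxic genes were divided. Of 11 genes 9 were higher in spleen (median -3.74), such as Klrd1 (-3.39 ± 0.10) and Nkg7 (-2.85 ± 0.07), but the granzyme genes Gzmb and Gzma, which lymphocytes of the gut epithelium carry too, were higher in duodenum. In the list for those epithelial lymphocytes, which holds both granzymes, 6 of 10 genes were higher in spleen and 4 in duodenum (median -1.03). Gzmb stood at 24.8, 22.8 and 26.0 CPM in duodenum and 4.26, 3.78 and 4.24 CPM in spleen (2.59 ± 0.09), and Gzma at 49.4, 52.7 and 53.8 CPM against 29.6, 24.2 and 26.9 CPM (0.95 ± 0.09).

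Plasma cell and IgA transport genes were divided, unlike the B cell list. Of 9 tested, 3 were higher in duodenum, 4 in spleen and 2 not called (median -0.38, lowest -3.88). Beyond 2-fold, 3 were higher in duodenum and 3 in spleen. Igj, the joining chain of secreted IgA and IgM, stood at 441, 506 and 464 CPM in duodenum and 518, 756 and 566 CPM in spleen (-0.38 ± 0.14), a call lost without duodenum replicate 1 (-0.33) or 3 (-0.37) or spleen replicate 2 (-0.20). Pigr, the epithelial receptor that carries IgA to the lumen, in contrast differed by 9.64 ± 0.20. Sdc1 (3.07 ± 0.10) and Xbp1 (1.31 ± 0.09), which plasma cells and epithelium both use, were higher in duodenum, and Prdm1 was not called (0.16). All 11 MHC class II genes were higher in spleen beyond 2-fold (median -3.25). Cd74, the invariant chain, stood at 412, 388 and 405 CPM in duodenum and 3530, 3507 and 3787 CPM in spleen (-3.17 ± 0.10), with H2-Aa at -3.12 ± 0.09, H2-Eb1 at -3.09 ± 0.09 and H2-Ab1 at -2.69 ± 0.09. MHC class I genes were divided, with 6 higher in duodenum, 7 in spleen and a median of -0.38, and 2 and 5 of them differed beyond 2-fold. H2-K1 was not called (-0.17 ± 0.09), H2-D1 differed by -0.59 ± 0.08, H2-T23 by 0.35 ± 0.06 and B2m, their common light chain, by 0.26 ± 0.08. H2-K1 was called with upper-quartile scaling (-0.44) and by limma-voom (-0.18, adjusted p = 0.01253). H2-T23 was not called with upper-quartile scaling (0.08). The B2m difference lost its call without spleen replicate 1 (0.21) or 2 (0.27) and was -0.01 with upper-quartile scaling, under which only 3 class I genes were higher in duodenum. H2-T3, which encodes the thymus leukaemia antigen of gut epithelium, lay apart at 9.17, and Nlrc5, the transactivator of class I genes, at -4.81, both named after their values were seen.

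Most listed myeloid and red cell genes were higher in spleen. All 12 dendritic cell genes were (median -3.07), including Itgax (-2.57 ± 0.06), Cd83 (-4.20 ± 0.15) and Flt3 (-3.71 ± 0.11). Of 13 neutrophil genes 12 were (median -5.88), with Ngp at -7.67 ± 0.33 and Ltf at -1.98 ± 0.24. Mmp9 stood at 31.0, 24.7 and 25.9 CPM in duodenum and 25.1, 22.3 and 19.5 CPM in spleen and was not called (0.29 ± 0.12). It was called with the replicate block (0.29, edgeR adjusted p = 0.01138), without duodenum replicate 2 (0.36) and without spleen replicate 1 (0.36). Of 12 red pulp macrophage genes 9 were higher in spleen (median -2.85), such as the haem oxygenase gene Hmox1 (-3.01 ± 0.25). The 3 higher in duodenum were Slc40a1, the prostaglandin dehydrogenase Hpgd (1.90 ± 0.06) and the phagocytic receptor Mertk (1.61 ± 0.11). Summed, this list stood at 2933 to 3339 CPM in duodenum and 1938 to 2037 CPM in spleen. Of 9 mast cell and basophil genes tested, 6 were higher in spleen and 2 in duodenum (highest 7.16). Of 14 erythroid genes 13 were higher in spleen (median -7.26). The haemoglobin genes Hba-a1 and Hba-a2, which share their counts, each held 4.09 ± 1.80% of spleen counts (SD, n = 3), Beta-s 1.78 ± 0.806%, and Hbb-b1 and Hbb-b2, which also share theirs, 1.46 ± 0.668%. Their log2 differences were -7.42 ± 0.60, -7.22 ± 0.60 and -7.26 ± 0.60. Tfrc, the transferrin receptor of erythroblasts and other dividing cells, was not called (-0.24), except without spleen replicate 3 (-0.57).

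Interferon-stimulated genes leaned to the spleen. Of 18 type I genes 11 were higher in spleen and 4 in duodenum (median -0.98), with Stat2 at -0.84 ± 0.06 and the RNA sensor Ddx58 at -0.69 ± 0.06. Irf7 (0.12), Isg15 (-0.71) and Usp18 (-0.38) were not called. Leaving out spleen replicate 2 called Irf7 (0.31), leaving out spleen replicate 3 called Isg15 (-1.01) and Usp18 (-0.47), and Usp18 was also called without duodenum replicate 1 (-0.48) or spleen replicate 1 (-0.49). Of 12 interferon gamma genes 10 were higher in spleen (median -2.0), with the GTPases Gbp4 (-3.31 ± 0.06), Irgm1 (-2.11 ± 0.08) and Igtp (-1.92 ± 0.10). The exception in favour of duodenum was the tryptophan-degrading enzyme Ido1 at 6.60, named after its value was seen, and Irf1 was not called (0.01 ± 0.10). Of 9 interleukin 22 and 17 response genes 6 were higher in duodenum and 2 in spleen (median 0.39): the interleukin 22 receptor chain Il22ra1 was at 163, 158 and 191 CPM against 0.117, 0.317 and 0.175 CPM (9.51 ± 0.19) and the antimicrobial lectin Reg3b at 138, 450 and 225 CPM (8.56 ± 0.58), while Il17ra was higher in spleen (-2.92 ± 0.06). Stat3, which carries the interleukin 22 signal, differed by 0.24 ± 0.06, a difference that turned to -0.03 with upper-quartile scaling, and Il22ra2 was not called (-0.27).

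Proliferation genes gave a contrast that varied with the library left out. Of 20 cell cycle genes 11 were higher in spleen, 1 in duodenum and 8 not called (median -0.61). Mki67 stood at 109, 112 and 113 CPM in duodenum and 401, 456 and 150 CPM in spleen (-1.59 ± 0.35), so that the spleen group spread widely and replicate 3 lay nearest to the duodenum. Top2a (-0.56 ± 0.20) and Pcna (-0.23 ± 0.09) showed the same spread, and limma-voom called neither (adjusted p = 0.05385 and 0.06234). Leaving out any 1 library other than spleen replicate 3 ended both calls, with values from -0.57 to -0.37 and from -0.24 to -0.17. Without spleen replicate 3, 17 were higher in spleen, and without spleen replicate 2 or duodenum replicate 3, 7 were. Genes often used as references were not equal either: Gapdh was at 1572, 1542 and 1458 CPM in duodenum and 228, 259 and 227 CPM in spleen (2.68), chosen after its value was seen. Of 14 such genes 7 were higher in duodenum and 5 in spleen (5 and 7 with upper-quartile scaling), with Eef1a1 at -0.39 ± 0.12, not called without duodenum replicate 3 (-0.37) or spleen replicate 3 (-0.34). Actb was not called (-0.04 ± 0.10) and neither was Eef2 (-0.03 ± 0.10). With upper-quartile scaling both were called higher in spleen (-0.31 and -0.3, edgeR adjusted p = 0.02093 and 0.02537).

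The most abundant duodenum genes were not at 0 in spleen. Of 126 genes at 1000 CPM or more in duodenum, 51 stood between 0.05% and 0.2% of that level in spleen and none was lower (lowest 0.0664%). Over these 51 genes the median was 0.0930%, 0.0884% and 0.104% of the duodenum level in spleen replicates 1, 2 and 3. In the reverse direction 1 of 40 genes at 1000 CPM or more in spleen lay in that band. Of 2324 genes at 100 CPM or more in duodenum, 180 lay in the band and 2 below it, and in the reverse direction 6 of 1590 lay in it. The source of these low spleen counts was not tested, and the log2 differences near 10 given above for abundant epithelial genes are set by them. At lower levels, 365 genes had 10 or more counts in every duodenum library and 3 or fewer over the spleen libraries, and 149 had the reverse.

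The comparison was repeated in the mice given AC H6, in 3 libraries per tissue that share no sample with the isotype fit. Of 16448 genes tested there, 6901 (42.0%) were higher in duodenum and 7030 (42.7%) in spleen. Of 13726 genes called under isotype and tested in both, 12506 were called with the same sign under AC H6 and 91 with the opposite sign. The epithelial, B cell and T cell lists had medians of 9.58, -7.44 and -3.74. In the LTbR pathway 17 genes were higher in duodenum and 30 in spleen, beside the 84.7% called over all genes, and the median moved from -1.64 to -0.59. A test of the interaction of tissue and treatment called 31 of 52 pathway genes, beside 20.0% of all 16655 genes tested, 26 with a shift toward duodenum and 5 toward spleen. Ubd, Mfge8, Nfkb2 and Relb were higher in spleen under isotype and higher in duodenum under AC H6. Ubd was at 22.6 ± 0.917 CPM in duodenum and 2.47 ± 0.641 CPM in spleen under AC H6 (SD, n = 3), a log2 difference of 3.15 ± 0.16, and Nfkb2 at 194 ± 3.89 and 161 ± 20.5 CPM (0.27 ± 0.10). Ltbr itself remained higher in duodenum at 2.52 ± 0.07, and the ligand genes Ltb (-5.45 ± 0.10) and Lta (-7.23 ± 0.22) remained higher in spleen.

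**Figure D4:**
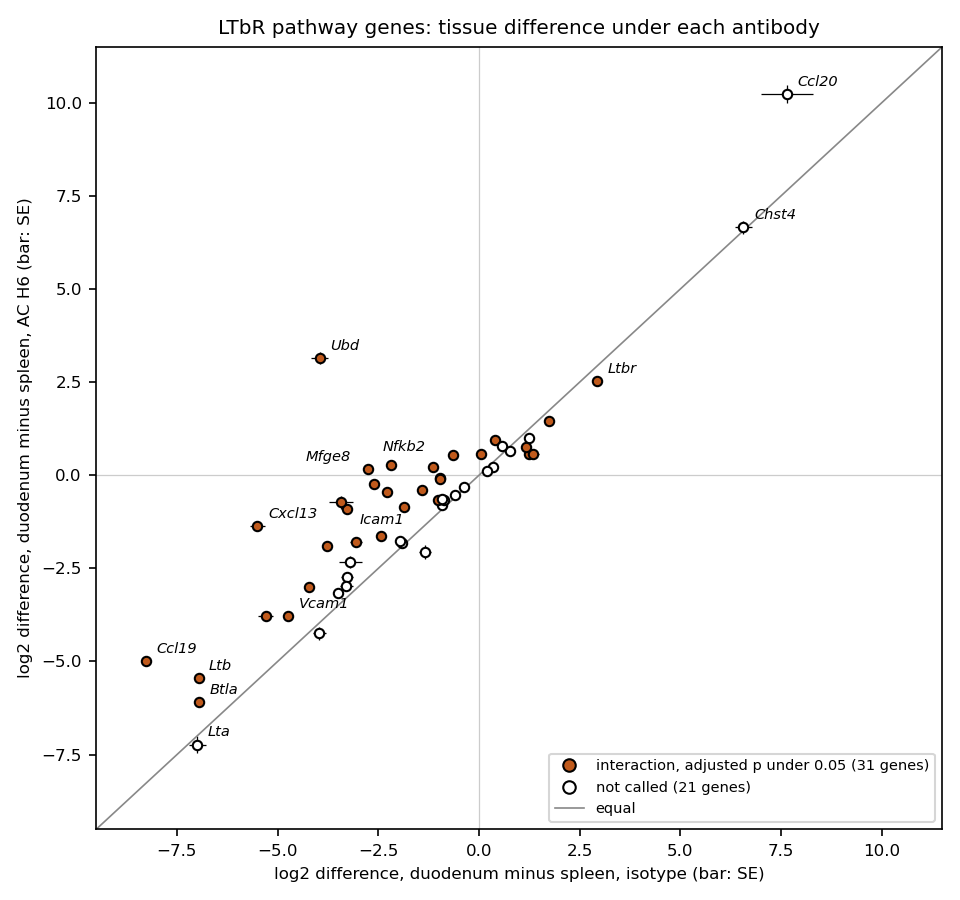
Log2 tissue difference of 52 LTbR pathway genes under isotype antibody (horizontal) against that under AC H6 (vertical), with standard errors as bars and a line of equality; filled points are the 31 genes called in the interaction test. Most filled points lie above the line, with Ubd, Cxcl13, Ccl19 and Mfge8 farthest from it, while Ltbr lies just below it and Lta and Chst4 lie close to it.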

How the data were processed

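RNA was sequenced from duodenum and spleen, and the 6 isotype libraries were compared. Trizol extraction and a TruSeq RNA kit were used, per the labels' protocols. Per the submitters' processing notes, the tools were bcl2fastq 2.19, Trimmomatic, STAR 2.3 and edgeR, on the mouse build mm10. What counted the reads, and on which annotation, is not given in the sources used here. Whole-number read counts per gene were deposited by the authors, 1 table of 23329 rows per library, and per the file headers reads that matched several places stayed in the counts. In 58 pairs of rows (91 genes) counts agreed within 1%, so values of close paralogs are uncertain, as are those of genes that overlap on opposite strands.

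With the deposited counts as input, edgeR 4.0.16 (R 4.3.3) gave TMM factors, CPM, the quasi-likelihood F-test (glmQLFit, glmQLFTest) and a test against a 2-fold difference (glmTreat) after filterByExpr. The fit used the 6 isotype libraries without covariates, the repeat used the 6 AC H6 libraries, and the interaction all 12. Adjusted p-values are Benjamini-Hochberg over all genes tested. The standard error is the size of the log2 difference divided by the square root of F and is unstable near 0. A ratio from 1 to 3 counts has a 95% exact interval for counting error alone. RPKM used exon lengths of GENCODE M21 on GRCm38, which matched 22800 rows (97.7%) by symbol or older symbol and gave positions. Upstream sequences are from RefSeq on GRCm38.p6.

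The comparison and the 66 gene lists (754 entries, 745 found) were chosen with earlier results of these data known. Muc2, Mln, Sh2d6, Muc16, Tcrg-C1, Trdc, Ighg2c, Siglecf and Ahsp matched no row and were not analysed here. Named genes were every LTbR pathway gene, the 12 largest differences per direction among genes called by both tests with no overlap of libraries and 100 CPM or more in the higher tissue (no predicted models or immunoglobulin or T cell receptor segments), up to 4 most abundant members of each described list with its uncalled members where 4 or fewer, and the 5 largest shares per tissue. Genes outside it are said to be chosen after their values were seen. Some genes that the rule names are not reported here.

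The labels give the same replicate numbers in both tissues. Deviations of same-numbered libraries from their group means correlated at 0.190, 0.353 and 0.111 across genes, and those of differently numbered libraries at -0.252 to 0.0703. Deviations cancel out within a group, so these values are not independent and do not settle a pairing. The main fit therefore has no block, and a fit with the number as a block is given where it changes a call. Within groups, pairs of libraries differed with a chi-square of 24.6 to 227 per degree of freedom, so none repeated another. Alternatives were DESeq2-style size factors, upper-quartile scaling, no filter and a stricter filter on low counts, leaving out the haemoglobin, Rn45s, Lars2 and amylase genes, 1 fit of all 12 libraries, DESeq2 1.42.0, limma-voom (limma 3.58.1), the block, and each library left out.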

Additional observations from a re-analysis of the deposited data

Results flagged for a closer look

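The tissue difference of 31 of the 52 LTbR pathway genes was not the same under AC H6 as under isotype antibody in the interaction test of edgeR on all 12 libraries (adjusted p under 0.05, beside 20.0% of all genes tested). Values are the log2 difference between duodenum and spleen under AC H6 minus that under isotype. These lymphoid stroma targets shifted toward duodenum: Ubd by 7.10, Cxcl13 by 4.13, Ccl19 by 3.26, Mfge8 by 2.92, Tnfsf11 by 2.68, Madcam1 by 2.39, Icam1 by 2.37, Ccl21a by 1.25 and Vcam1 by 0.94. These signalling genes shifted the same way: Nfkb2 by 2.45, Nfkbie by 1.87, Map3k14 by 1.83, Traf1 by 1.51, Nfkbia by 1.35, Nfkbid by 1.21, Relb by 1.18, Traf3 by 1.03, Birc3 by 1.01, Traf2 by 0.88, Tnfaip3 by 0.87, Bcl3 by 0.54, Nfkbib by 0.53 and Rela by 0.34. Of the ligands and receptors, Ltb shifted by 1.5, Btla by 0.85 and Tnfrsf1b by 0.79. Toward spleen shifted Tnfsf13b by -0.78, Traf4 by -0.69, Chuk by -0.44, Ltbr by -0.41 and Tnfrsf1a by -0.27, all genes that were higher in duodenum under isotype. The Tnfrsf1a call was lost with the replicate number as a block (adjusted p = 0.06987), without the filter on low counts (0.07056) and without any 1 library other than spleen isotype replicate 2 (edgeR adjusted p from 0.05055 to 0.2035). The Ltbr call was lost without spleen isotype replicate 1 (0.05907) or 3 (0.063) or spleen AC H6 replicate 3 (0.05499), and the Tnfsf13b call without spleen isotype replicate 1 (0.05089).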

How the results depend on the processing

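The counts of genes higher in duodenum and in spleen kept within 1.5 times their value under all alternatives run, from 5760 (upper-quartile scaling) to 7329 (no filter) in duodenum and from 6182 (stricter filter) to 8232 (upper-quartile scaling) in spleen. With each library left out the counts ran from 6619 to 6845 and from 6775 to 7056, beyond 2-fold from 3990 to 4154 and from 3251 to 3390, under AC H6 from 6726 to 6916 and from 6764 to 6972, and the interaction called 29 to 33 pathway genes. With the replicate number as a block the counts were 6770 and 7029, the interaction called 30, and apart from the genes whose blocked value is printed above, no call of a named gene changed but that of Ctrb1 (4.58). Differences near 0 changed sign. With upper-quartile scaling the values were Otud7b -0.07, Nfkbib -0.22, Stat3 -0.03, Znrf3 -0.24, Prdm1 -0.11, B2m -0.01, Irf7 -0.15 and Irf1 -0.26. Of these, Nfkbib and Irf1 were then called higher in spleen (edgeR adjusted p = 0.02942 and 0.03912). With DESeq2-style size factors and with DESeq2, Actb was 0.02 and Eef2 0.03. Irf1 was -0.01 without the filter and -0.00 with limma-voom. With 1 isotype library left out in turn, Irf1 ran from -0.08 to 0.11, Znrf3 from -0.07 to 0.14, Nfkbib from -0.01 to 0.08, Eef2 from -0.10 to 0.00, Amy2a5 from -1.67 to 7.76 and Cela1 from -0.49 to 3.00. The cause of these changes was not tested. Depth limits the genes of few counts, such as Lta in duodenum and Ccl20 in spleen.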
